A study of Mus musculus with 38 samples.

Results

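In mouse embryonic fibroblasts (MEFs), 2184 regions of open chromatin were absent from the peak lists of days 9 and 11 after delivery of wild-type SALL4, yet were listed on both days after delivery of a SALL4 lacking its first 12 residues. They were chosen from the ATAC-seq peaks of MEFs, of which 75284 out of 125470 had a score of 100 or more. A member had to share at least 1 bp with a SALL4-delN12 peak on day 9 and on day 11, and with no SALL4-WT peak on either day. The 2184 members were 2.9% of the 75284 scored MEF peaks, and are called WT-lost sites here. The word "lost" refers to the lists of days 9 and 11, because most of the sites had no SALL4-WT peak on the earlier days either, as given in the account of days 1 and 5.

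The MEFs came from E13.5 embryos of male OG2 mice, which carry an Oct4-GFP transgene, and 129S4/SvJaeJ females. They were infected with pMXs retrovirus for SALL4-WT or SALL4-delN12 as the only delivered factor and kept in iCD3 medium, which holds the GSK3 inhibitor CHIR99021, the DOT1L inhibitor SGC0946, an LSD1 inhibitor, Y27632, bFGF and mLIF, with no added BMP4. ATAC-seq, which reads open chromatin by transposase insertion, and RNA-seq were collected on days 1, 5, 9 and 11 for each form, and Cut&Tag for SALL4 and for the acetylated histone H3K27ac on day 6. Uninfected MEFs had ATAC-seq only. Each condition had 1 deposited library of the unsorted culture, so no difference between the forms has a replicate and none was tested. In such cultures, fewer cells with an open site and less opening per cell cannot be told apart.

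SALL4 is a zinc-finger transcription factor of early embryos and stem cells that binds AT-rich DNA. Its N-terminal residues recruit NuRD, a complex that pairs a nucleosome remodeller with histone deacetylases and is known for closing enhancers and removing acetyl groups from histones. Fibroblast enhancers are typically bound by AP-1, TEAD and RUNX factors, which act downstream of growth factor, Hippo and TGF-beta signalling. The comparison of SALL4-WT with SALL4-delN12 addresses which fibroblast sites differ when SALL4 lacks these residues. Whether both forms were delivered to the same MEF preparation is not given in the sources used here, so the form and the starting culture cannot be told apart in any difference, those of day 1 included.

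The sequences of 7 WT-lost sites are shown because their lowest score in the MEF and late SALL4-delN12 lists is among the highest of the set, or the highest at a fibroblast gene of the lists used here. Each is 200 bp around the peak centre on the plus strand of GRCm38 (mm10), with matches to AP-1 (TGANTCA), TEAD (GGAATG) and RUNX (TGTGGT) on either strand in capitals. The Smarca2 site (chr19:26501186-26501385) is intergenic, 104 kb from the nearest start, that of Smarca2, which encodes an ATPase of the SWI/SNF remodeller. The Pgbd5 site (chr8:124450535-124450734) is intergenic, and the Kcnma1 site (chr14:23902601-23902800) is in an intron of Kcnma1, which encodes a potassium channel. The Psapl1 site (chr5:36254986-36255185) is in an intron of Sorcs2, a sorting receptor gene. The Col1a1 site (chr11:94933600-94933799), the Fosl2 site (chr5:32160949-32161148) and the Prrx1 site (chr1:163338924-163339123) are intergenic.
Smarca2 site: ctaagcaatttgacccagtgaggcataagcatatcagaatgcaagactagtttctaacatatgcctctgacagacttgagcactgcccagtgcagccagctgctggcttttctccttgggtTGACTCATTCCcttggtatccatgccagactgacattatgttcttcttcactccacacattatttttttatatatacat
Pgbd5 site: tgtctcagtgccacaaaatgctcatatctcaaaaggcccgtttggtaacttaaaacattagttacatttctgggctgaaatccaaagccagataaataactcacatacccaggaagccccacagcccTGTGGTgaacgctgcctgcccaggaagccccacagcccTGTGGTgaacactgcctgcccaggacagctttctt
Kcnma1 site: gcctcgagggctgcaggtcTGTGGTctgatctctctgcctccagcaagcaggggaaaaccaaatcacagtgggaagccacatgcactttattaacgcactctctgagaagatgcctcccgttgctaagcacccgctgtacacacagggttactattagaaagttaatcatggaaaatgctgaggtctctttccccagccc
Psapl1 site: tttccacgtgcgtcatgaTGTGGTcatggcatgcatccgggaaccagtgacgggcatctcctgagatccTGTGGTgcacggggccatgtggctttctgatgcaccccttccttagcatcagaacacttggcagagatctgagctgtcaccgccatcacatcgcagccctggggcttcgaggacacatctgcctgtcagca
Col1a1 site: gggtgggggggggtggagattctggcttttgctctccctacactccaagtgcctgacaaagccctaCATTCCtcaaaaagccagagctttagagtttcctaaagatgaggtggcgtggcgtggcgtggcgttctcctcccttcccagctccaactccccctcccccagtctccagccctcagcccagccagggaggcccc
Fosl2 site: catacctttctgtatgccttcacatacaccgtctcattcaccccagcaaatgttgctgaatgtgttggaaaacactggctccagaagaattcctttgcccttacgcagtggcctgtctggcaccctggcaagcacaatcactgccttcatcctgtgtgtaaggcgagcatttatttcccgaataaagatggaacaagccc
Prrx1 site: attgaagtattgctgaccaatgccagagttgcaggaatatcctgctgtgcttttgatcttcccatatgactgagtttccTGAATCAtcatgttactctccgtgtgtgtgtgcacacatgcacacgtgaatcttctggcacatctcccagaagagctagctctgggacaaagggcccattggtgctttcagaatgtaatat
The Smarca2 site held an AP-1 and a TEAD match that share bases, the Pgbd5 and Psapl1 sites held 2 RUNX matches each, and the Fosl2 site held none of the 3 motifs. Matches are descriptions of letters and not bound sites.

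The deposited MACS score of a peak grows as its p-value falls, starts at 50 in every list, and is not scaled between libraries. The ATAC-seq lists of the infected cells held 78517 to 98422 peaks, and those of days 9 and 11 held 95940 and 89245 with SALL4-WT and 94072 and 78517 with SALL4-delN12. The H3K27ac list was longer with SALL4-delN12 (45599 peaks) than with SALL4-WT (19841), while the SALL4 lists held 67310 and 69475. All 6 fibroblast markers were above an FPKM of 1 in every RNA library, but they differed between the forms in both directions. On day 11 Prrx1 was at 47.3 FPKM with SALL4-WT and 12.6 with SALL4-delN12, Col3a1 at 93.9 and 31.0, and Twist1 at 114 and 62.4. Col1a2 was at 904 and 577, Col1a1 at 755 and 1065, and Thy1 at 63.4 and 91.5. The cultures also differed in markers of other cells. On day 1 the 6 epithelial markers already summed to 923 FPKM with SALL4-delN12 and 156 with SALL4-WT. Over the 4 days they summed to 770 to 937 FPKM with SALL4-delN12 and 145 to 190 with SALL4-WT, and the 6 macrophage markers to 137 to 311 and 20.9 to 75.7, although on day 1 the macrophage markers Adgre1 and Ptprc were lower with SALL4-delN12. The 8 markers of primitive endoderm (PrE) reached 319 FPKM with SALL4-delN12 and 28.5 with SALL4-WT on day 11, against 19 and 21.2 on day 1. Of the 6 pluripotency markers, at most 2 were above an FPKM of 1 in a library. The part of other cell types in the results on WT-lost sites was not tested.

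The scores that chose the WT-lost sites are given as a description. Their MEF scores ran from 100.13 to 2230, with a median of 222, against 250 over all scored MEF peaks. With SALL4-delN12 the median score was 104 on day 9 (50.1 to 694) and 87.7 on day 11 (50.1 to 1016), against 188 and 162 over all scored MEF peaks with a peak there. Both late scores were 100 or more at 578 sites (26.5%) and both were below 100 at 731 (33.5%). A further 1125 MEF peaks had the same pattern with a MEF score under 100. The 161 of them with a score of 90 to under 100 had median SALL4-delN12 scores of 96.8 and 80.2 on days 9 and 11, and the 135 members just inside the limit, below 110, had 92.9 and 86.5. The nearest SALL4-WT peak was a median of 5868 bp away on day 9 and 6087 bp on day 11. A SALL4-WT peak lay within 500 bp at 235 sites (10.8%) on day 9 and 273 (12.5%) on day 11.

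**Figure D1:**
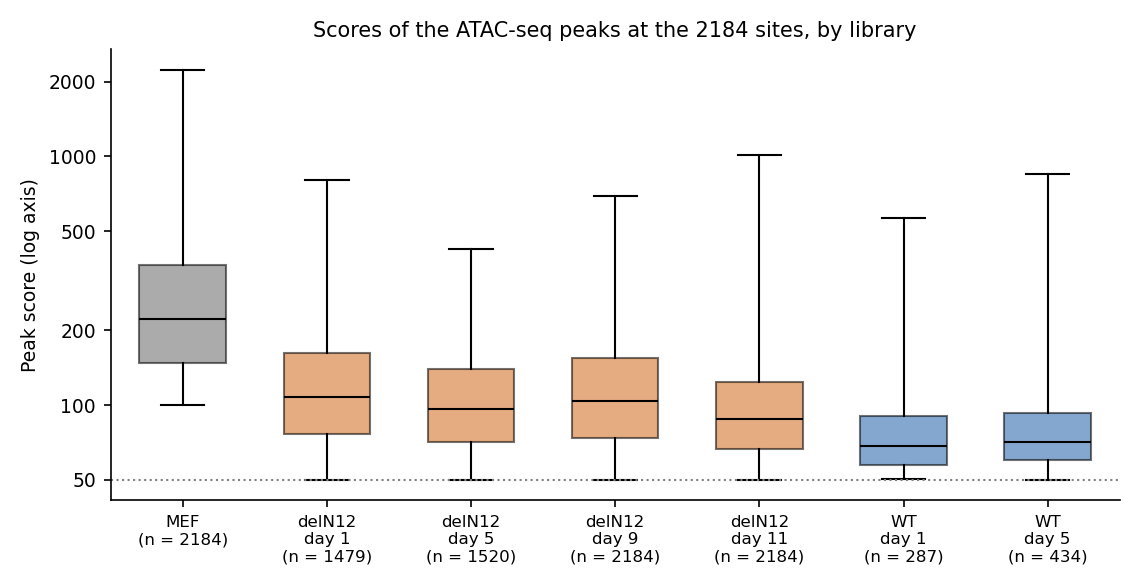
Scores of the ATAC-seq peaks at the 2184 WT-lost sites on a log axis, for MEFs, SALL4-delN12 on days 1, 5, 9 and 11, and SALL4-WT on days 1 and 5. Boxes span the quartiles with the median as a line, whiskers reach the lowest and highest value, n is the number of sites with a peak and the dotted line is the lowest score of the lists. Medians are 222 in MEFs, 87.7 to 108 with SALL4-delN12 and 68.7 to 70.8 at the few sites listed with SALL4-WT.

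The 6 sites with the highest value of the lowest of their MEF and late SALL4-delN12 scores are described next, and their early and Cut&Tag values did not choose them. The Ms4a14 site, at chr19:11321077-11321276, lies in the untranslated part of the last exon of Ms4a7, a gene of the same family. It scored 515 in MEFs, and with SALL4-delN12 164, 253, 347 and 413 on days 1, 5, 9 and 11. The Smarca2 site scored 649 in MEFs and 72.0, 120, 311 and 319 with SALL4-delN12. The Pgbd5 site scored 584 in MEFs and 215, 228, 339 and 276 with SALL4-delN12. None of these 3 sites had a SALL4-WT peak on any day. The Kcnma1 site scored 272 in MEFs, had no SALL4-delN12 peak on day 1, and scored 187, 301 and 327 on days 5, 9 and 11. The Psapl1 site scored 405 in MEFs and 164, 384, 286 and 269 with SALL4-delN12. These 2 sites likewise had no SALL4-WT peak on any day. The site 13.8 kb from the start of Smad7, an inhibitor of TGF-beta and BMP signalling, was the only one of the 6 with early SALL4-WT peaks. It scored 1001 in MEFs, 580, 194, 694 and 278 with SALL4-delN12, and 130 and 90.8 with SALL4-WT on days 1 and 5. On day 6 all 6 sites carried a SALL4 Cut&Tag peak with SALL4-delN12 (119 to 515) and none did with SALL4-WT. The WT-lost sites as a whole had 80.8% and 26.1%, and all scored MEF peaks 54.6% and 52.2%. The 578 sites with both late SALL4-delN12 scores of 100 or more had 91.2% and 28.2%. An H3K27ac peak was listed with SALL4-delN12 at 3 of the 6, namely the Smad7 site (371), the Psapl1 site (213) and the Ms4a14 site (69.0), and at none with SALL4-WT. The WT-lost sites as a whole had 43.7% and 4.30%, and all scored MEF peaks 52.2% and 27.3%, so the SALL4-delN12 count is near both shares.

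The day 1 and day 5 libraries did not choose the sites, and the forms differed there too. On day 1, 287 WT-lost sites (13.1%) had a SALL4-WT peak and 1479 (67.7%) a SALL4-delN12 peak, where all scored MEF peaks gave 52.6% and 64.5%. On day 5 the counts were 434 (19.9%) and 1520 (69.6%), against 63.2% and 61.6% of all scored MEF peaks. The SALL4-delN12 shares were thus within 10 points of the background on both days, while the SALL4-WT shares were far under it. Chosen without the day 9 libraries, the set had 22.5% and 32.4% with SALL4-WT on days 1 and 5, and without the day 11 libraries 19.1% and 31.9%. A SALL4-WT peak was missing on both early days at 1600 sites (73.3%), against 32.8% of all scored MEF peaks. Another 297 (13.6%) had one on day 5 only, near the 14.7% of all scored MEF peaks, 150 (6.87%) on day 1 only, against 4.0%, and 137 (6.27%) on both days, against 48.6%. With SALL4-delN12, 1164 sites (53.3%) had a peak on both early days, as did 53.6% of all scored MEF peaks, and 349 (16.0%) on neither, against 27.5%. At 841 sites (38.5%) SALL4-delN12 was listed on both early days and SALL4-WT on neither, against 5.46%.

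Where a SALL4-WT peak was listed early, it was weak, as at the sites lost with both forms. Its median score was 68.7 on day 1 and 70.8 on day 5, against 157 and 219 over all scored MEF peaks with a peak there. At the MEF peaks listed in neither form on days 9 and 11 it was 68.0 and 70.8, at 6.0% and 5.50% of them. The SALL4-delN12 peaks had medians of 108 and 96.8, against 168 and 151. The 2369 sites found by exchanging the forms, listed with SALL4-WT and not with SALL4-delN12 on days 9 and 11, had another course. There 57.6% and 78.6% had a SALL4-WT peak on days 1 and 5, and 44.5% and 32.6% a SALL4-delN12 peak. The WT-lost sites were thus apart between the forms on day 1 by more than this set was, in single libraries.

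**Figure D2:**
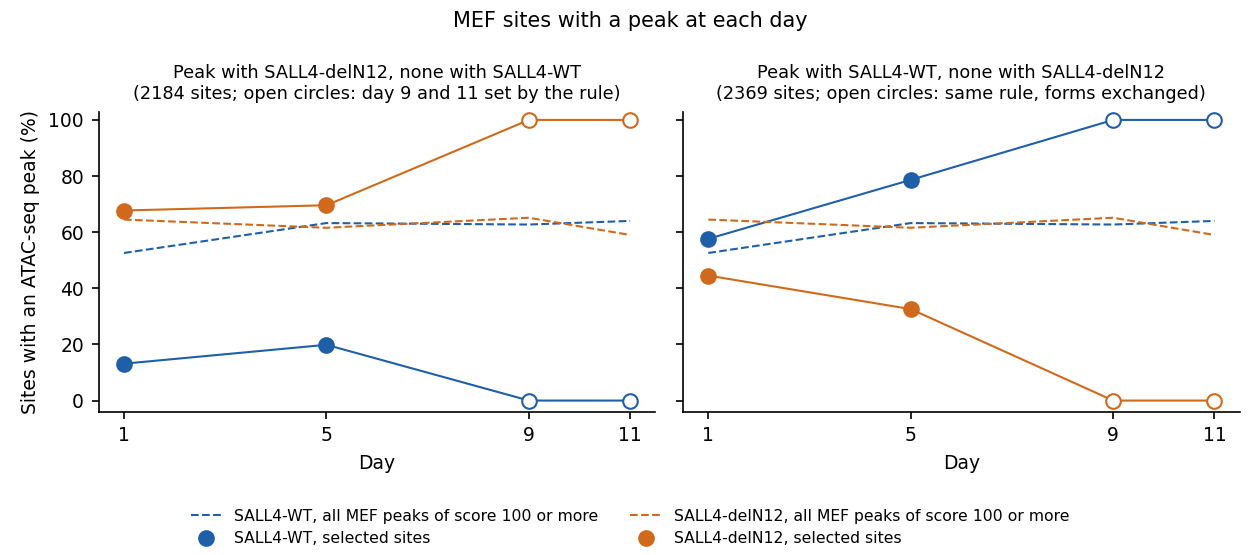
Percent of sites with an ATAC-seq peak by day, for the 2184 WT-lost sites (left) and the 2369 sites found with the forms exchanged (right). Blue is SALL4-WT and orange SALL4-delN12, dashed lines are all scored MEF peaks, and open circles at 0 and 100% are fixed by the choice of the sites. The WT-lost sites stand at 13.1% and 19.9% with SALL4-WT on days 1 and 5.

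Each late day was also looked up with sites chosen on the other day alone. Of 8055 MEF peaks listed on day 9 with SALL4-delN12 only, 55.9% had a SALL4-delN12 peak on day 11 and 40.7% a SALL4-WT peak, against 59% and 64% of all scored MEF peaks. Of 5135 listed on day 11 with SALL4-delN12 only, 69.1% had a SALL4-delN12 peak on day 9 and 32.6% a SALL4-WT peak, against 65.1% and 62.7%. Of the 8055 sites of day 9, 958 (11.9%) had SALL4-WT alone on day 11, and of the 5135 of day 11, 313 (6.10%) had SALL4-WT alone on day 9, against 11.8% and 8.28% of all scored MEF peaks. The 2184 WT-lost sites were 27.1% of the first group and 42.5% of the second, where 6.82% and 10.7% of all scored MEF peaks had SALL4-delN12 alone on the day looked up, so the larger part of either single-day group did not hold on the other day.

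SALL4 itself was listed at the WT-lost sites mainly in its shortened form. On day 6 a SALL4 Cut&Tag peak overlapped 1764 WT-lost sites (80.8%) with SALL4-delN12 and 570 (26.1%) with SALL4-WT. Over all scored MEF peaks the shares were 54.6% and 52.2%, close to each other. The MEF peaks listed in neither form on days 9 and 11 leaned the same way at lower levels, with 34.7% for SALL4-delN12 and 12.4% for SALL4-WT. The set found by exchanging the forms leaned the other way, with 28.7% and 58.1%. In the WT-lost and forms-exchanged sets, the higher share was thus with the form whose late ATAC-seq peaks chose the sites. The part of this choice in the SALL4 shares was not tested. At the WT-lost sites SALL4 was listed with SALL4-delN12 alone at 1272 sites, in both forms at 492, with SALL4-WT alone at 78 and in neither at 342, which is 58.2%, 22.5%, 3.57% and 15.7% of them, against 17.1%, 37.5%, 14.7% and 30.7% of all scored MEF peaks. With Cut&Tag scores of 100 or more, the shares of the WT-lost sites were 69.0% with SALL4-delN12 and 12.2% with SALL4-WT, against 40.3% and 37.03%. The overlapping peaks had median scores of 207 with SALL4-delN12 and 94.5 with SALL4-WT, against 164 and 148 over all scored MEF peaks. Among the stronger MEF peaks the forms were farther apart. At MEF scores of 400 or more, 91.0% of the WT-lost sites carried SALL4-delN12 and 25.3% SALL4-WT, against 73.4% and 76.5% of all MEF peaks of that strength.

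The share with SALL4-delN12 went with base composition. It was 95.3% at the 298 WT-lost sites of under 40% GC, 87.0% at the 1406 of 40 to 50% GC and 53.5% at the 480 above 50% GC, where all scored MEF peaks of these classes gave 62.4%, 62.7% and 46.3%. The share with SALL4-WT was 16.1%, 26.1% and 32.3%, against 18.8%, 45.0% and 63.8%. In the AT-richest class the SALL4-WT share of the WT-lost sites was thus near that of all MEF peaks. The 420 sites without SALL4-delN12 were weaker, with a median MEF score of 164 and late scores of 78.0 and 77.7, and 34.5% of them had a SALL4-WT ATAC-seq peak on day 5.

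H3K27ac was listed at 955 WT-lost sites (43.7%) with SALL4-delN12 and at 94 (4.30%) with SALL4-WT, against 52.2% and 27.3% of all scored MEF peaks. Acetylation was listed with SALL4-delN12 alone at 870 sites, in both forms at 85, with SALL4-WT alone at 9 and in neither at 1220, which is 39.8%, 3.89%, 0.412% and 55.9% of them, against 26.1%, 26.1%, 1.20% and 46.6% of all scored MEF peaks. Outside promoters the SALL4-delN12 share was 42.04%, against 42.2% of all scored MEF peaks there, and the SALL4-WT share 2.70%, against 14.0%. At 40 to 50% GC the shares were 44.3% and 2.49%, against 41.9% and 10.9%. The SALL4-delN12 share was thus under the background over all sites but near it away from promoters, while the SALL4-WT share was under it in each of these comparisons. The lists differ in length, and with the longer one cut to its 19841 highest peaks the SALL4-delN12 share was 13.8%, against 30.7% of all scored MEF peaks. Over MEF scores of 100 to under 200, 200 to under 400, and 400 or more, the share of WT-lost sites with SALL4-delN12 acetylation was 43.9%, 42.1% and 46%, while in all MEF peaks it was 33.8%, 47.0% and 79.0%. Of the 955 acetylated sites, 88.8% also carried SALL4-delN12, against 74.5% of the 1229 without acetylation. A site with both SALL4-delN12 and its acetylation, and neither with SALL4-WT, was found 533 times (24.4%), against 5.59% of all scored MEF peaks.

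**Figure D3:**
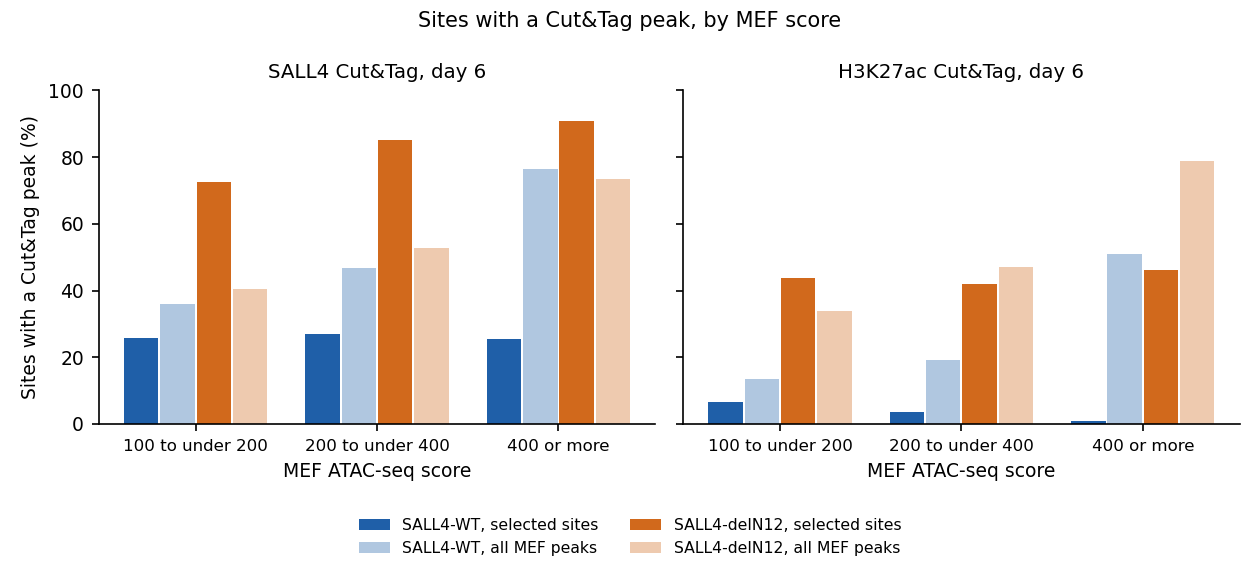
Percent of sites with a SALL4 (left) or H3K27ac (right) Cut&Tag peak on day 6, in 3 classes of MEF ATAC-seq score. Full colours are the WT-lost sites and pale colours all MEF peaks of that score, blue with SALL4-WT and orange with SALL4-delN12. The full blue bars stay between 25.3% and 27% for SALL4 while the pale blue bars climb to 76.5%.

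The WT-lost sites lay mostly away from promoters. Of the 2184, 150 (6.87%) were within 2 kb of a transcription start of a protein-coding gene, 28 (1.28%) in exons, 931 (42.6%) in introns and 1075 (49.2%) between genes, against 23.7%, 2.04%, 34.8% and 39.4% of all scored MEF peaks. The median distance to the nearest start was 44.1 kb, against 24.3 kb, and the median GC content of the 200 bp window was 45.5%, against 50%. The 16104 MEF peaks listed in neither form on days 9 and 11 were alike in this, with 4.79% at promoters and 44.5% GC. The sites were spread over the genome, from 2.18% of the scored MEF peaks of chromosome X to 3.81% of those of chromosome 18. Of the 150 at promoters, 26.0% had H3K27ac with SALL4-WT and 36.0% a SALL4-WT ATAC-seq peak on day 5. The sites between genes had 2.98% and 17.6%. Over all scored MEF peaks these shares were 27.3% and 63.2%, and H3K27ac with SALL4-WT was at 14.0% of those outside promoters. The mark was thus commoner at promoters than elsewhere among all scored MEF peaks too. The 27.3% and 63.2% cover promoters and other places together, and the shares of promoter MEF peaks alone were not computed. For H3K27ac with SALL4-WT that promoter share must lie above 27.3%, so the 26.0% of the 150 sites was under it.

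Fibroblast motifs were common in the sites. A TEAD match was found in 30.6% of the WT-lost sites and 19.7% of all scored MEF peaks, a RUNX match in 27.4% and 18.3%, and an AP-1 match in 33.7% and 27.7%. At least 1 of these 3 motifs was found in 1489 sites (68.2%), against 51.5%, and in 62.1% of the sites lost with both forms. SOX (ATTGTT) was found in 12.2% and 7.22%, the letters AGATAA of GATA factors in 11.4% and 6.91%, C/EBP (TTGCNNAA) in 10.3% and 8.29%, FOX (TGTTTAC) in 3.57% and 2.46%, and the AT-rich letters AATATT in 8.24% and 4.63%. The sites lost with both forms had 9.85% SOX, 9.15% GATA and 10.1% AATATT, so the AATATT share is not particular to the WT-lost sites. Fewer WT-lost sites than MEF peaks at large held KLF (GGGNGTGG, 6.46% and 8.98%), CTCF (3.43% and 5.67%) or ETS (CCGGAA, 2.70% and 6.2%) letters. The CArG box of serum response factor was found in 2.01% and 1.32%, and NFI in 0.0916% and 0.0571%. All motifs were searched on both strands, and TEAD and ETS matches shared bases in 7 sites.

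Base composition moved with several of these shares. SOX was found in 18.1% of the WT-lost sites under 40% GC and 7.1% of those above 50%, and GATA in 16.1% and 6.9%. At 40 to 50% GC, SOX was found in 12.7% of the WT-lost sites and 10.1% of all scored MEF peaks. GATA was found there in 11.9% and 9.42%. Both stayed higher in the WT-lost sites, by less than over all windows. ETS was found in 2.06% and 2.58%, and KLF in 4.77% and 5.19%, also closer together than over all windows. CTCF likewise stayed lower in the WT-lost sites. How much of the differences over all windows went with base composition was not tested further. Within windows of 40 to 50% GC, TEAD was found in 31.7% of 1406 WT-lost sites and 25% of 31801 MEF peaks, and RUNX in 28.8% and 22.8%. AP-1 was then found in 36.5% and 38.0%, so that its order turned. In that class the sites lost with both forms had 32.6% AP-1, 27.9% TEAD and 21.6% RUNX, and the sites kept with both forms 41.9%, 22.9% and 24.4%. The forms-exchanged set had 38.8%, 21.4% and 19.1%. Among the WT-lost sites, those with an AP-1 match carried SALL4-delN12 in 89.0%, against 76.6% of those without, and their GC medians were 43.5% and 46.5%.

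**Figure D4:**
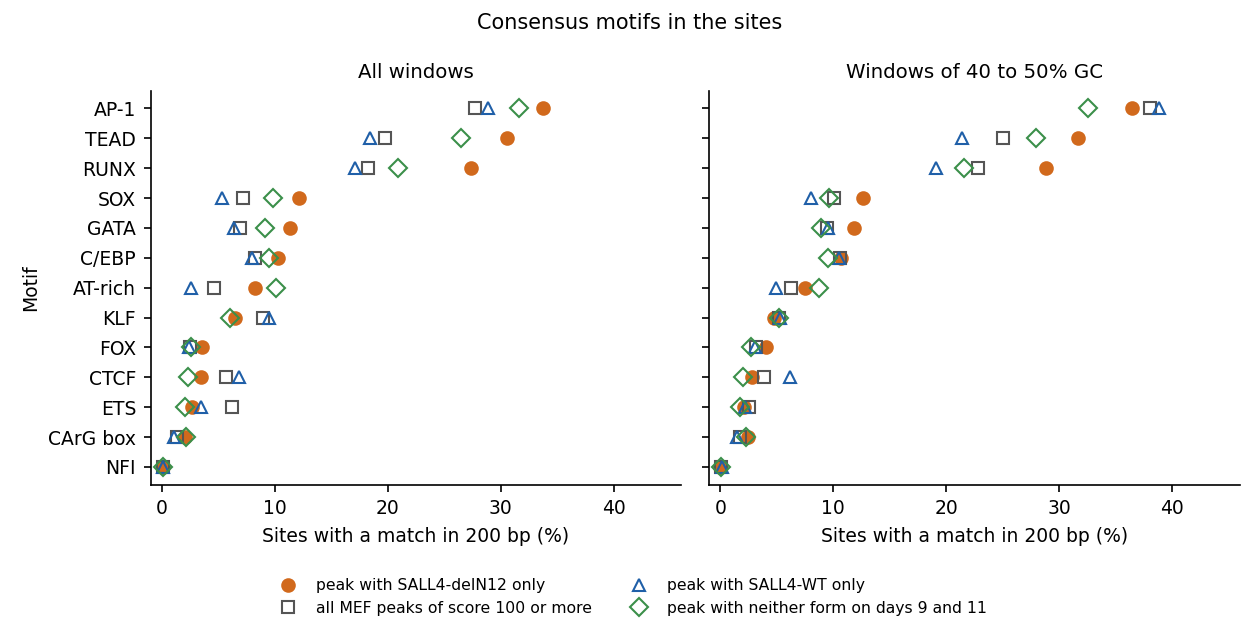
Percent of sites with a consensus match in 200 bp around the peak centre, for all windows (left) and for windows of 40 to 50% GC (right). Orange circles are the WT-lost sites, squares all scored MEF peaks, triangles the sites found with the forms exchanged and diamonds the sites listed in neither form on days 9 and 11. TEAD and RUNX are higher in the WT-lost sites than in the other sets on both sides, at 31.7% and 28.8% on the right.

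The RNA differences of the nearest genes had medians close to those of all genes on days 1, 5 and 9. The day 11 median was below that of all genes, but it was 0.03 at the sites with late SALL4-delN12 scores of 100 or more, -0.01 for genes within 10 kb and -0.02 with no limit on FPKM, so that its sign turned in the first of these. In the other alternatives it stayed negative, from -0.10 to -0.05. The sites within 50 kb of a start, 1157 of the 2184, had 1074 nearest genes, of which 1034 were matched by symbol to the RNA table. The difference of log2(FPKM + 1), SALL4-delN12 minus SALL4-WT, had medians of -0.02, -0.01, 0.02 and -0.08 on days 1, 5, 9 and 11, against -0.03, -0.01, 0.03 and 0.01 over all genes with an FPKM of 1 or more in either library. On day 1, 42 of 690 nearest genes were higher with SALL4-delN12 by 2-fold or more and 42 lower (6.09% each, background 4.18% and 5.63%), and on day 5, 56 and 43 of 725 (7.72% and 5.93%, background 4.67% and 5.19%). On day 9, 61 of 734 nearest genes were higher with SALL4-delN12 by 2-fold or more and 54 lower (8.31% and 7.36%, background 6.09% and 5.75%). On day 11 it was 56 and 51 of 762 (7.35% and 6.69%, background 6.55% and 6.58%). Of 726 genes measured on both days, 36 were higher and 34 lower past 2-fold on both (4.96% and 4.68%, background 3.4% and 3.56%). Over the genes nearest to any scored MEF peak, the shares higher and lower were 3.67% and 4.88% on day 1 and 4.02% and 4.86% on day 5. They were 5.29% and 5.56% on day 9, and 5.58% and 5.86% on day 11. For genes nearest to sites lost with both forms they were 5.85% and 9.67% on day 9, and 5.36% and 9.81% on day 11. Single RNA libraries give these values no error.

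The genes named here have the highest and lowest mean difference of days 9 and 11 among the nearest genes with an FPKM of 5 or more in a late library, and are descriptions of 1 library a day. Among secreted signals, Bmp2, a BMP ligand, was at 48.1, 57.5, 73.4 and 45.4 FPKM with SALL4-WT and 1.2, 4.19, 4.4 and 3.9 with SALL4-delN12 on days 1, 5, 9 and 11. It was lower with SALL4-delN12 also on days 1 and 5, which did not choose it. Sfrp2, a secreted modulator of Wnt signalling, was at 314, 115, 57.9 and 60.1 with SALL4-WT and 12.3, 9.20, 9.78 and 13.4 with SALL4-delN12. Wnt7a, a Wnt ligand, was at 0.0405, 0.484, 0.613 and 1.07 with SALL4-WT and 3.77, 17.0, 22.8 and 9.78 with SALL4-delN12. The Wnt receptor gene Fzd10 was at 0.667, 1.7, 1.97 and 4.12 with SALL4-WT and 1.61, 31.8, 30.9 and 23.7 with SALL4-delN12. The ligand Wnt7a and the receptor Fzd10 were higher with SALL4-delN12, and Sfrp2 lower, also on days 1 and 5, which did not choose them.

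Some of these genes, picked at both ends of the late difference, encode matrix or contractile proteins. Efemp1, a fibulin of the extracellular matrix with 2 WT-lost sites, was at 20.8 and 43.2 FPKM on days 9 and 11 with SALL4-WT and 2.01 and 3.24 with SALL4-delN12. Emilin2, an elastic fibre glycoprotein, was at 161 and 181 with SALL4-WT and 28.4 and 22.0 with SALL4-delN12. Myl9, a regulatory myosin light chain, was at 21.4 and 30.02 with SALL4-WT and 94.8 and 212 with SALL4-delN12. Tgfbi, a matrix protein induced by TGF-beta with 2 WT-lost sites, was at 19.3 and 19.5 with SALL4-WT and 85.5 and 93.5 with SALL4-delN12. The directions of these genes on the late days follow from their choice. On days 1 and 5, which did not choose them, Efemp1 and Emilin2 were lower with SALL4-delN12 and Tgfbi higher. Myl9 was nearly equal between the forms on day 1 and higher with SALL4-delN12 on day 5. Ahr, a ligand-activated transcription factor, and Cyp1b1, a cytochrome P450 that AHR is known to induce, differed by -2.24 and -2.33, and by -2.38 and -2.86, on the log2 scale on days 9 and 11. Avpr1a, the vasopressin receptor 1A, differed by -2.23 and -2.65. Tril, a cofactor of Toll-like receptors, was higher with SALL4-delN12 by 2.36 and 2.06, the arylsulfatase gene Arsi by 2.59 and 2.22, and Ooep, an oocyte-expressed gene, by 3.48 and 1.79. Ctss, a lysosomal protease typical of macrophages, was at 4.69 and 4.77 FPKM with SALL4-WT and 27.6 and 51.2 with SALL4-delN12, in the same libraries in which the macrophage markers C1qa and C1qb were at 57.1 and 116, and 47.6 and 107, with SALL4-delN12 and 2.43 and 3.88, and 5.25 and 4.34, with SALL4-WT. The part of these cells in the Ctss difference was not tested.

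**Figure D5:**
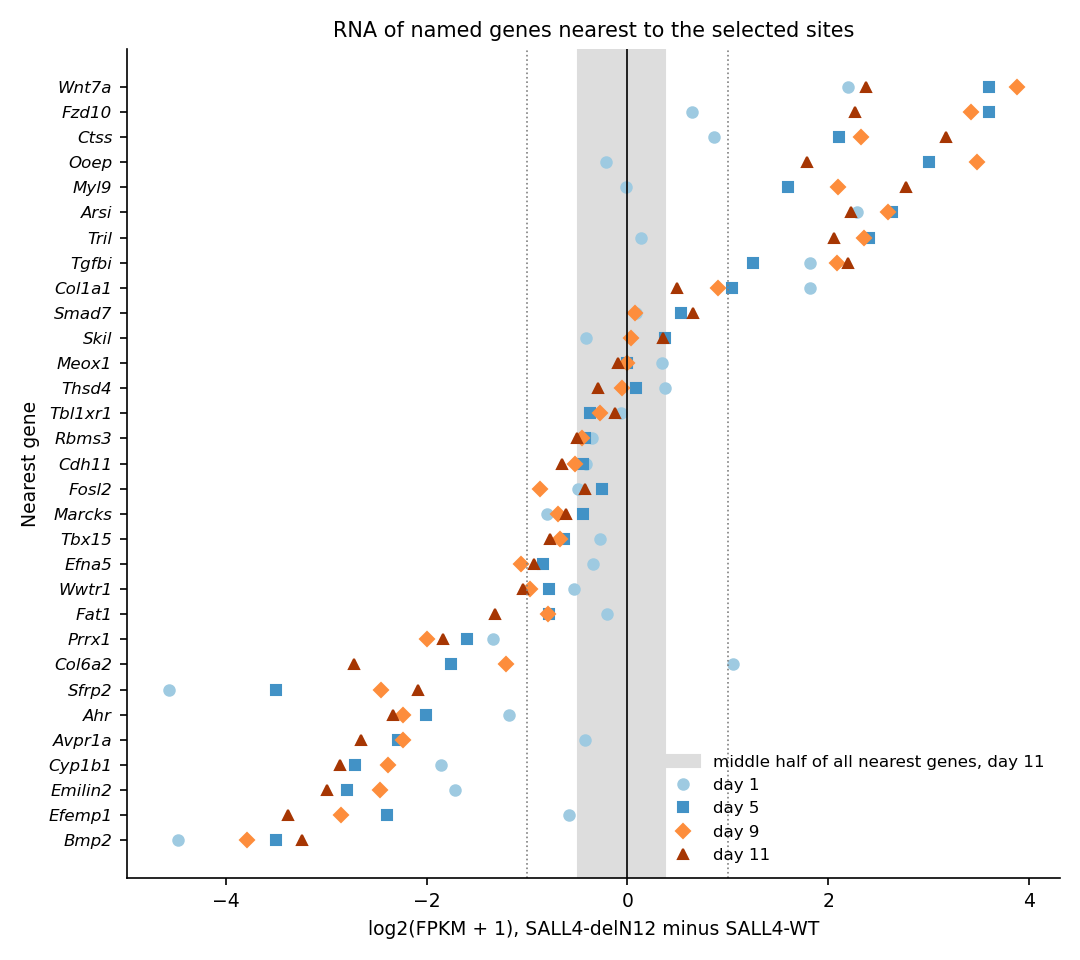
Difference of log2(FPKM + 1), SALL4-delN12 minus SALL4-WT, on 4 days for the named genes nearest to WT-lost sites. Each marker is a difference of 2 libraries, the grey band spans the quartiles of all nearest genes on day 11, and dotted lines mark 2-fold. Differences of the named genes run from -3.79 for Bmp2 to 3.88 for Wnt7a on day 9.

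Some genes of the fibroblast lists had a WT-lost site within 50 kb. They were 3 of 30 matrix and contractile genes (Col1a1, Col6a2 and Myl9), 3 of 32 mesenchymal transcription factors (Prrx1, Tbx15 and Meox1), 1 of 11 AP-1 genes (Fosl2) and 4 of 18 genes of YAP-TEAD and TGF-beta signalling (Wwtr1, Smad7, Skil and Tgfbi), where 1034 of the 15521 genes of the RNA table nearest to any scored MEF peak had one. With the nearest gene at any distance, the sites were 13 of 307, 14 of 495, 1 of 85 and 10 of 251 scored MEF peaks of these lists, or 4.23%, 2.83%, 1.18% and 3.98%, around the background of 2.9%. Their scores at 10 sites, the Smad7 site aside, ran from 114 to 630 in MEFs and from 51.2 to 143 with SALL4-delN12 on day 11. The Col1a1 site, 2.52 kb before the start of this collagen gene, scored 433 in MEFs and 58.5, 62.6, 183 and 143 with SALL4-delN12, with no SALL4-WT peak on any day and no Cut&Tag peak in either form. The Prrx1 site, 25.3 kb from the start of this mesenchymal homeobox gene, scored 151 in MEFs and 227, 120, 113 and 86.2 with SALL4-delN12. There SALL4 Cut&Tag scored 610 with SALL4-delN12 and 146 with SALL4-WT, and H3K27ac 259 with SALL4-delN12 alone.

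RNA of the list genes did not follow their sites in 1 direction. Col1a1 was at 472, 693, 727 and 755 FPKM with SALL4-WT and 1666, 1424, 1356 and 1065 with SALL4-delN12 on days 1, 5, 9 and 11. Prrx1 was at 28.1, 41.1, 43.9 and 47.3 with SALL4-WT and 10.5, 12.9, 10.3 and 12.6 with SALL4-delN12. The site was thus listed with SALL4-delN12 alone at both genes, where Col1a1 RNA was higher and Prrx1 RNA lower with SALL4-delN12. Col6a2, a collagen VI chain gene, differed by 1.05, -1.76, -1.21 and -2.72 on the log2 scale over the 4 days. Wwtr1, which encodes the TEAD coactivator TAZ, differed by -0.53, -0.78, -0.97 and -1.04. Of the whole matrix and contractile list, 7 genes were higher and 7 lower with SALL4-delN12 past 2-fold on day 1 out of 29, and 4 and 13, 3 and 14, and 5 and 13 out of 30 on days 5, 9 and 11. Of the mesenchymal factors, 0 were higher and 5 lower on day 1, 1 and 7 on day 5 and 1 and 9 on day 11 out of 28, and 1 and 12 on day 9 out of 27. Over all genes the shares higher and lower were 4.18% and 5.63% on day 1, 4.67% and 5.19% on day 5, 6.09% and 5.75% on day 9, and 6.55% and 6.58% on day 11.

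WT-lost sites were scattered over 1792 nearest genes, of which 1504 had 1 site. The genes with most sites were Cdh11, Marcks and Thsd4 with 7 each, Rbms3 with 6, and Efna5, Fat1 and Tbl1xr1 with 5 each, and 16 genes followed with 4. Cdh11, a cadherin of mesenchymal cells, had 7 of its 40 scored MEF peaks in the set, at 115 to 1012 kb from a start, where 2.9% of all scored MEF peaks are in the set. The genes were picked for their number of sites, so these counts are a description. A SALL4 Cut&Tag peak was listed at 6 of the 7 with SALL4-delN12 and at none with SALL4-WT, where the WT-lost sites as a whole had 80.8% and 26.1% and all scored MEF peaks 54.6% and 52.2%. Cdh11 RNA was at 16.7, 38.2, 51.5 and 64.2 FPKM with SALL4-WT and 12.3, 27.8, 35.7 and 40.5 with SALL4-delN12. Thsd4, which encodes a matrix protein of the ADAMTS-like family, had 7 of 25 within 145 kb, with SALL4 Cut&Tag at 6 with SALL4-delN12 and at 3 with SALL4-WT. H3K27ac was listed at 6 of these 7 with SALL4-delN12 and at none with SALL4-WT, where the WT-lost sites as a whole had 43.7% and 4.30% and all scored MEF peaks 52.2% and 27.3%. Its RNA was at 0.375, 2.03, 1.73 and 1.92 FPKM with SALL4-WT and 0.782, 2.22, 1.63 and 1.38 with SALL4-delN12, higher with SALL4-delN12 on days 1 and 5 and lower on days 9 and 11. Marcks, an actin-binding substrate of protein kinase C, had 7 of 35, all with a SALL4 Cut&Tag peak with SALL4-delN12 and 2 with SALL4-WT. Its RNA was at 48.8, 68.1, 52.3 and 88.5 FPKM with SALL4-WT and 27.6, 49.7, 32.1 and 57.4 with SALL4-delN12. Fat1, an atypical cadherin, had 5 of 28, all with a SALL4 Cut&Tag peak with SALL4-delN12, none with SALL4-WT and none with H3K27ac in SALL4-WT or SALL4-delN12, and Efna5, an ephrin ligand, had 5 of 54. RNA of Fat1 differed by -0.20, -0.78, -0.79 and -1.32 on the log2 scale, and that of Efna5 by -0.34, -0.84, -1.06 and -0.93. The RNA differences of Cdh11, Marcks, Fat1 and Efna5 were under 2-fold, except those of Fat1 on day 11 and Efna5 on day 9.

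A site without a peak in a list may still hold signal under the limit of the caller, so absence with SALL4-WT means no listed peak and not closed chromatin. Sall4 RNA was at 549, 491, 518 and 290 FPKM with SALL4-WT and 809, 623, 971 and 428 with SALL4-delN12, which reads delivered and endogenous transcripts together, and the part of this difference was not tested.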

How the data were processed

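The deposited ATAC-seq and Cut&Tag files are peak lists with a score per peak, as the authors called them. Per the methods, reads were trimmed with Trim Galore 0.6.4, mapped to mm10 with Bowtie2 2.4.5, filtered with SAMtools 1.16.1 and called with MACS 1.4.2. ATAC-seq used short fragments with duplicates kept, and Cut&Tag replicates were merged before calling. The authors deposited RNA-seq as FPKM from HISAT2 2.2.1 and StringTie 2.2.1. Of the FPKM table, 9 columns of other samples were not used. Read numbers are unknown.

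The members, gene lists and tests were chosen with earlier results of these data known. Sites overlapped by at least 1 bp. Genes were the protein-coding genes of GENCODE vM21, promoters reached 2 kb from a start in both directions, and the sequence was GRCm38, in which all peaks lay inside their chromosomes. Motifs were counted as letters in 200 bp around the peak centre, since the lists give no summit. RNA differences are of log2(FPKM + 1) between 1 library per form, with an FPKM of 1 or more in either, and understate low genes. With 1 library per condition no test was run. Named sites are the 6 with the highest lowest score in MEF and both late SALL4-delN12 lists, and the strongest site of each list gene. Named genes are list genes with a site, the genes with most sites at any distance and the 8 highest and 8 lowest mean late differences. One gene that this rule names is not reported here. Scripts ran in Python 3.11.15 with pandas 2.3.3, and were tested on simulated overlaps, motifs and fold changes.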

Additional observations from a re-analysis of the deposited data

How the results depend on the processing

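Over 212 recomputed values, 113 stayed within the counting interval of the reported value (95%, or within 1.5 times for the number of sites) and 99 moved beyond it. This interval counts sites or genes of single libraries and serves only as a label for the size of a move. It does not measure the spread between libraries, and the alternatives share sites with the reported set. In every alternative the share of sites with a SALL4-delN12 peak stayed above that with a SALL4-WT peak on days 1 and 5 and for SALL4 Cut&Tag. With all MEF peaks of the list the set held 3309 sites, of which 66.3% had a SALL4-delN12 ATAC-seq peak on day 5 and 77.8% SALL4-delN12 Cut&Tag. With a MEF score of 200 or more it held 1207 sites, and these values were 75.1% and 87.3%, with 5.14% at promoters, 36.1% AP-1 and 34.0% TEAD. With late SALL4-delN12 scores of 100 or more it held 578 sites, of which 90.3% had the day 5 peak, 28.2% SALL4-WT and 91.2% SALL4-delN12 Cut&Tag, 49.0% H3K27ac with SALL4-delN12, 5.71% were at promoters, 36.9% had TEAD, and the RNA median of day 11 was 0.031. With SALL4-delN12 peaks covering 50% of the MEF peak there were 1206 sites, with 73.5% for day 5, 78.2% for SALL4-delN12 Cut&Tag and 35.8% AP-1. Without day 11 there were 8055 sites and without day 9 5135. Their day 1 shares with SALL4-WT were 19.1% and 22.5%, their day 5 shares 31.9% and 32.4% with SALL4-WT and 61.4% and 60.3% with SALL4-delN12, their SALL4 Cut&Tag shares 30.8% and 33.5%, and 72.1% and 70.0%, 8.74% and 8.51% were at promoters, and 25.9% and 27.6% had TEAD. With equal numbers of late peaks, day 5 gave 25.1% and 75.3%, SALL4-WT Cut&Tag 30.2%, H3K27ac with SALL4-delN12 47.4% and AP-1 35.9%. With no SALL4-WT peak within 500 bp, SALL4-WT gave 17.9% on day 5 and 21.6% for Cut&Tag, H3K27ac with SALL4-delN12 38.7% and promoters 4.78%.

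Cut&Tag scores of 100 or more gave 12.2% and 69.0% for SALL4 and 26.3% for H3K27ac with SALL4-delN12, against 37.03%, 40.3% and 40.7% of all scored MEF peaks, and peaks within 500 bp 30.3% for SALL4-WT. The H3K27ac share with SALL4-WT (4.30%) was 1.74% with no SALL4-WT peak within 500 bp, 2.24% with Cut&Tag scores of 100 or more, 2.49% with a MEF score of 200 or more, 2.70% outside promoters, 2.94% with late SALL4-delN12 scores of 100 or more, and 6.24% and 6.39% without day 11 and without day 9. A promoter window of 1 kb gave 4.03%. Windows of 50 bp gave 10.8% AP-1 and 9.07% TEAD, whole peaks 42.0% and 40.3%. Genes within 10 kb had an RNA median of 0.0799 on day 9. With MEF scores from 50, the sites chosen on day 9 had 49.8% SALL4-delN12 and 37.4% SALL4-WT peaks on day 11, and those chosen on day 11 had 62.7% and 31.3% on day 9, while with 200 or more the values were 62.4% and 42.8%, and 74.7% with SALL4-delN12. The following were chosen after seeing the data: equal lists of a day (16.0% SALL4-WT on day 5), equal lists of a mark (13.8% H3K27ac with SALL4-delN12), sites outside promoters (82.6% SALL4-delN12 Cut&Tag), windows of 40 to 50% GC (36.5% AP-1), the nearest gene at any distance and the PU.1 letters. The causes of these moves were not tested. The days of a form were not taken as its replicates, and no fit with form and day as terms was run. Read depth is unknown, so weak peaks cannot be weighed by it.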

Other observations

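WT-lost sites nearest to marker genes of other cell types were few in number. Within the distance limit used for the RNA of nearest genes, 3 epithelial markers had such a site. No macrophage, PrE, endothelial or pluripotency marker had one within that limit. With the nearest gene at any distance, 4 of 32 scored MEF peaks of the macrophage markers (12.5%) were in the set, against 2.9% of all scored MEF peaks, all of them nearest to Ptprc, the leukocyte phosphatase CD45. For the epithelial markers it was 3 of 19 (15.8%), at Cdh1, Krt19 and Cldn4, for the PrE markers 2 of 73 (2.74%), at Gata6 and Sox17, and for the endothelial and pluripotency markers 0 of 48 and 0 of 11. The 4 sites nearest to Ptprc were intergenic and lay 152186 to 372951 bp from its start. Ptprc RNA was at 0.667, 0.262, 0.125 and 0.0882 FPKM with SALL4-WT and 0.432, 0.529, 0.549 and 0.892 with SALL4-delN12 on days 1, 5, 9 and 11. The letters GAGGAAGT, the core of the motif of the myeloid factor PU.1, were in 54 WT-lost sites (2.47%) and in 1.82% of all scored MEF peaks. The Ms4a14 site, with the highest lowest score of the set, lies in Ms4a7, whose RNA was at 1.91, 0.467, 0.521 and 0.705 FPKM with SALL4-WT and 1.12, 0.604, 2.12 and 3.58 with SALL4-delN12, so it was lower with SALL4-delN12 on day 1 and higher on the later days.

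Of the genes beside the other strongest sites, Sorcs2, Pgbd5 and Smad7 were higher with SALL4-delN12 on every day. Sorcs2, whose intron holds the Psapl1 site, was at 9.19, 7.6, 7.33 and 5.48 FPKM with SALL4-WT and 32.5, 17.3, 20.1 and 9.33 with SALL4-delN12. Pgbd5, a gene derived from a transposase, was at 0.384, 0.898, 0.942 and 1.82 with SALL4-WT and 5.16, 5.06, 4.40 and 3.18 with SALL4-delN12. Smad7 was at 18.7, 11.7, 12.9 and 9.63 with SALL4-WT and 20.0, 17.4, 13.6 and 15.7 with SALL4-delN12, so it differed less. Kcnma1 was at most 0.0913 FPKM in every library. Smarca2 was at 3.41 and 6.66 with SALL4-WT and 5.50 and 6.31 with SALL4-delN12 on days 9 and 11, so its order differed between the late days.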
